A study of Mus musculus with 12 samples.

Results

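Transcripts of 10 genes for the fibronectin and laminin side of cell adhesion were followed through adipogenesis in 3T3-L1 cells, mouse embryonic fibroblasts that become fat cells when induced with hormones. They were chosen by symbol as Itga5, Itga6, Itgb1, Fn1, Lama4, Lamb1, Lamc1, Nid1, Nid2 and Sparc, which are 10 of the 55487 genes in the expression table. Each symbol had 1 row, and all 10 passed the filter of at least 1 TPM in at least 2 libraries that left 15968 genes for testing. The set is described by its genes, because the values do not bear out the fibronectin side of a change from fibronectin to laminin, and no direct comparison of preadipocytes with differentiated cells was fitted. Fn1 was at 1732 to 1765 TPM in control preadipocytes and at 2313 to 2386 TPM after differentiation, and Itga5 was at 44.6 to 124.5 TPM and at 145.9 to 151.8 TPM in the same groups. The laminin side was mixed there, with higher TPM of Itga6, Lama4, Lamb1, Nid1 and Nid2 after differentiation. Lamc1 was at 121.6 to 133.3 TPM and at 142.4 to 142.7 TPM. It was thus at 6.89% to 7.70% and at 5.97% to 6.17% of Fn1.

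Integrins are heterodimers of an α and a β chain that tie the extracellular matrix to the actin cytoskeleton, and the α chain largely sets the ligand. Integrin α5 pairs with β1 as the classical fibronectin receptor, while α6 pairs with β1 or β4 as a laminin receptor. Laminins are trimers of an α, a β and a γ chain that polymerise into the basement membrane, and nidogens bridge the laminin and collagen IV networks. Fibroblasts lie in a fibronectin-rich interstitial matrix, whereas fat cells are each surrounded by a basement membrane, so both sides of the set are of interest in adipogenesis.

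Cells with a control hairpin (shScram) were compared with cells with a hairpin against Fto (shFto), which encodes an RNA demethylase that acts on N6-methyladenosine. Both lines had been infected with lentivirus and selected with puromycin, and the hairpin carried by the sequenced shFto cells is not named. Libraries were made from growth-arrested preadipocytes (Pre), from cells at mitotic clonal expansion after induction with IBMX, dexamethasone and insulin (MCE), and from cells after differentiation (Diff), with 2 libraries in each of 6 groups. The questions of the design are how the knockdown changes expression at each stage, how expression moves between stages in each line, and whether those moves differ between the lines. The labels do not say that the libraries of a group came from separate cultures, so p-values measure the spread between these libraries, which may be technical. For differentiated shScram cells, the treatment entry of replicate 1 names the knockdown while its title names shScram, and the title was followed.

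Fto was at 52.7 to 73.5 TPM in the 6 shScram libraries and at 5.51 to 7.47 TPM in the 6 shFto libraries, without overlap. TPM, which scales each library to the same total after correcting for transcript length, keeps no depth, so the reads behind each value are unknown. The 2 shScram preadipocyte libraries stood apart, with a correlation across genes of 0.939 against 0.990 to 0.993 within the other groups, and their difference fell with the GC content of the transcript (Spearman's rho = -0.69 across genes, which are not independent). Within the other groups rho was -0.20 to 0.36, with 0.32 in shFto preadipocytes. Which of the shScram preadipocyte pair is the odd library is unknown, so many results that rest on the pair are also given without one or the other. These fits leave a single library in that group, so the spread of the pair does not enter their SE and p. For genes outside the 10, these fits were added after the data were seen. Preadipocyte differences of Itgb7, Thbs1 and the cell type markers, and the counts over most gene lists, are given over all libraries only. Summed TPM of 6 fibroblast markers was 2536 to 8584 in all libraries, with none of the 6 at 0. Sums over 6 endothelial and 6 epithelial markers were at most 1.28 TPM, with Kdr and Cldn4 at 0 throughout, and 6 macrophage markers were at 1.62 to 10.98 TPM with Adgre1 at 0.

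**Figure D1:**
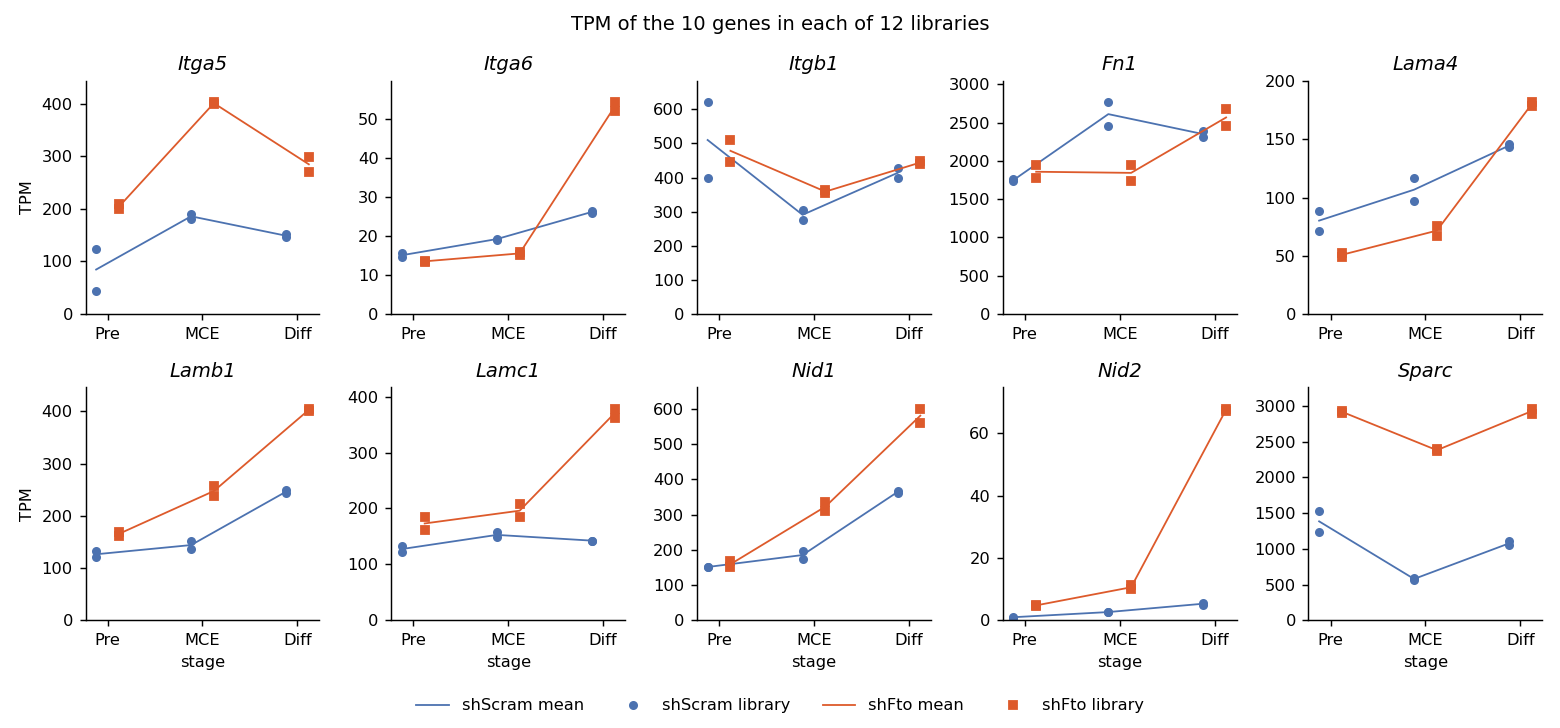
TPM of each gene (y axis, linear and starting at 0) at the 3 stages (x axis), with 1 point per library and lines through the means of 2 libraries for shScram and shFto. Nid2 reached 67.3 and 68.0 TPM only in the differentiated shFto libraries, Sparc was higher in all shFto than in all shScram libraries, and the shScram preadipocyte points of Itga5 and Itgb1 lay far apart.

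In preadipocytes, 5 of the 10 genes were higher in shFto than in shScram cells (Itga5, Lamb1, Lamc1, Nid2 and Sparc) and 1 was lower (Lama4), beside 15.9% of all tested genes called higher and 12.3% called lower. At the MCE stage, 4 were higher (Lamb1, Nid1, Nid2 and Sparc) and 2 lower (Fn1 and Lama4), with 10.5% and 7.26% of all tested genes called. At the differentiation stage, 6 were higher (Itga6, Lamb1, Lamc1, Nid1, Nid2 and Sparc) and none was lower, with 11.9% and 9.31% called. A gene was called where limma, fitted on log2(TPM + 1) over all 12 libraries and all 15968 genes, gave a Benjamini-Hochberg adjusted p under 0.05. With no filter on low values the calls of Itga5 in preadipocytes and Fn1 at the MCE stage were lost, with limma adjusted p = 0.0614 and 0.116. After GC correction the preadipocyte calls of Lamb1 and Lamc1 were lost, with values of 0.10 each (limma adjusted p = 0.519 and 0.677). The median log2 difference of the 10 genes was 0.24, 0.57 and 0.82 at the successive stages, and that of all tested genes was 0.08, 0.05 and 0.03. The genes were chosen with earlier results of these data known. Their counts and medians beside those of all tested genes, here and below, are therefore descriptions only. Without shScram preadipocyte replicate 1 or 2, more of the 10 genes were called at the MCE and differentiation stages. The shares of all tested genes called in these fits are not given here, so the added calls are not set against them. A library outside the groups compared leaves a difference as it is when left out and alters only its SE and p. In both of these fits Itga5, Itga6, Itgb1 and Lamc1 were added at the MCE stage, and Itga5 and Lama4 at the differentiation stage.

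The stage changes went mostly upward. From preadipocytes to the MCE stage, 5 genes rose in shScram cells (Itga5, Itga6, Fn1, Lama4 and Nid2) and 2 fell (Itgb1 and Sparc), where 12.2% of all tested genes rose and 26.9% fell. In shFto cells 4 rose (Lama4, Lamb1, Nid1 and Nid2) and none fell, with 8.80% and 19.9% for all genes. From the MCE to the differentiation stage, 5 rose in shScram cells (Itga6, Lamb1, Nid1, Nid2 and Sparc) and 7 in shFto cells (Itga6, Fn1, Lama4, Lamb1, Lamc1, Nid1 and Nid2). None fell there in either line, beside 20.0% of all genes rising and 5.22% falling in shScram cells, and 20.2% and 6.48% in shFto cells. With no filter the rises of Itga5 and Lama4 in shScram cells over the first change and of Fn1 in shFto cells over the second were lost, with limma adjusted p = 0.0616, 0.0709 and 0.0927. The median log2 change of the 10 genes was 0.31 in shScram and 0.34 in shFto cells over the first change and 0.47 and 0.77 over the second. The comparisons of successive stages share the MCE libraries, and those of the lines share libraries with those of the stages.

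All tested genes shifted between stages on this scale. Their median log2 difference was -0.17 in shScram and -0.18 in shFto cells from preadipocytes to the MCE stage, and 0.23 and 0.17 from there to differentiation. After median-ratio scaling those medians were 0.0035, 0.0023, 0.010 and -0.0030. With that scaling, the split of all called genes was 3202 higher and 2831 lower in place of 1942 and 4294 for the first change in shScram cells, and 2263 and 2249 in place of 1405 and 3180 in shFto cells. For the second change it was 1866 and 1765 in place of 3190 and 833 in shScram cells, and 2456 and 2027 in place of 3222 and 1034 in shFto cells. Relative to the shift, 7 of the 10 genes were called from preadipocytes to the MCE stage in shFto cells in place of 4, all of them higher, with Itga5 (log2 1.21), Itga6 (0.41) and Lamc1 (0.41) added. In shScram cells Lamb1 (0.41), Lamc1 (0.48) and Nid1 (0.51) were added as higher and the fall of Itgb1 was lost (-0.55, limma adjusted p = 0.0767). For the second change, the rise of Itga6 in shScram cells (0.16) and that of Fn1 in shFto cells (0.26) were lost.

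**Figure D2:**
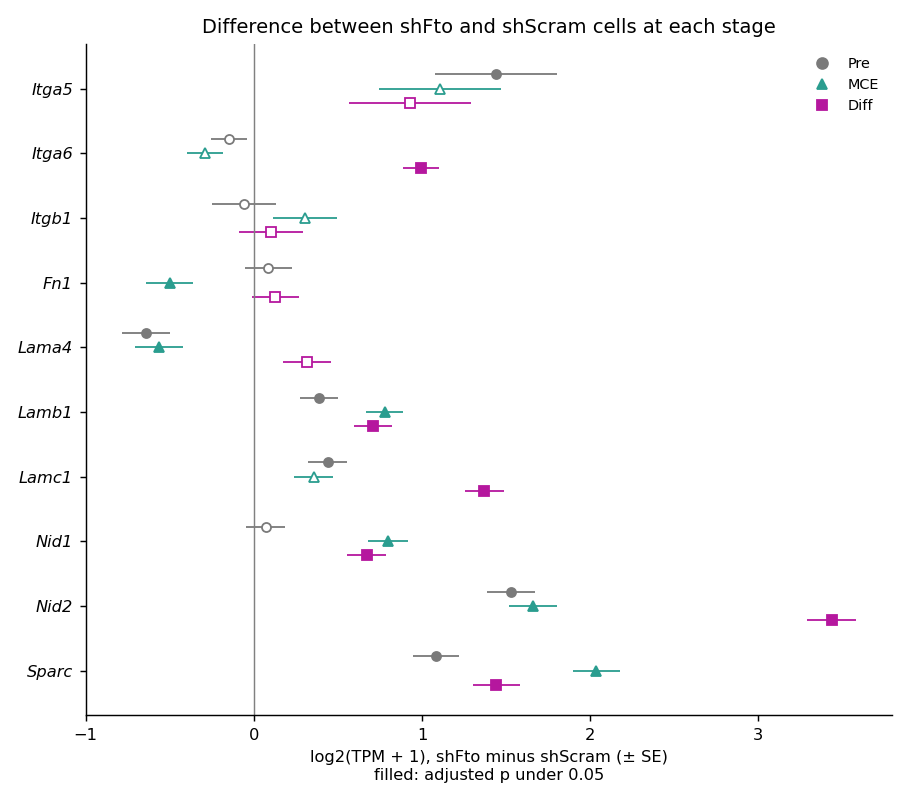
Difference between shFto and shScram cells on the log2(TPM + 1) scale (x axis, with SE from limma) for the 10 genes (y axis) at the 3 stages, with filled symbols where the adjusted p was under 0.05. The symbols of Lamb1, Nid2 and Sparc are filled at all 3 stages, and Nid2 at the differentiation stage lies farthest to the right at 3.44.

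Itga5 encodes the α chain of the fibronectin receptor (ENSMUSG00000000555, GRCm38 chromosome 15, 103344286 to 103366763, minus strand). Its TPM was 44.6 and 124.5 in shScram preadipocytes, 190.9 and 180.8 in the shScram MCE libraries, and 145.9 and 151.8 in the differentiated ones. The shFto values were 199.6 and 208.7, 402.9 and 399.2, and 270.4 and 299.1 TPM in the same order. The lowest shFto library was thus above the highest shScram library of any stage, and no neighbouring groups overlapped in the order of levels, in which shScram preadipocytes were lowest and shFto cells at the MCE stage highest. The difference between the lines was called in preadipocytes (log2 1.44 ± 0.36 SE, limma adjusted p = 0.0215). It was not at the MCE stage (1.11 ± 0.36, limma adjusted p = 0.0684) or at the differentiation stage (0.93 ± 0.36, limma adjusted p = 0.106), with an SE pooled over all groups, the shScram preadipocyte pair included.

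Without shScram preadipocyte replicate 1, the Itga5 differences were 0.71, 1.11 and 0.93 at the successive stages. Without replicate 2 the preadipocyte difference was 2.17. Either fit leaves a single library in that group, so the wide spread of its pair no longer enters the SE. With a correction for GC content the differences at the successive stages were 0.74, 0.97 and 0.71, and all 3 were called (limma adjusted p = 0.00530, 0.00098 and 0.00489). The preadipocyte call was lost without either shFto preadipocyte library (limma adjusted p up to 0.0991). Itga5 has the highest GC content of the 10 transcripts, 57.3%. Its rise from preadipocytes to the MCE stage was 1.30 ± 0.36 in shScram cells (limma adjusted p = 0.0203), 0.57 and 2.03 without shScram preadipocyte replicate 1 or 2, and lost without either shScram MCE library (limma adjusted p up to 0.0866). The shFto value was 0.97 ± 0.36 (limma adjusted p = 0.0767, and 1.48e-06 without replicate 1). The later changes, -0.32 ± 0.36 in shScram and -0.49 ± 0.36 in shFto cells, did not pass (limma adjusted p = 0.562 and 0.361), and passed without shScram preadipocyte replicate 1 (limma adjusted p = 0.00342 and 0.00022).

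Itga6 encodes the α chain of the laminin receptors α6β1 and α6β4 (ENSMUSG00000027111, GRCm38 chromosome 2, 71745616 to 71858416, plus strand). It was at 14.6 and 15.5 TPM, 19.4 and 19.1 TPM, and 25.9 and 26.6 TPM in shScram cells at the successive stages. The shFto libraries held 13.3 and 13.7 TPM, 15.9 and 15.2 TPM, and 52.1 and 54.4 TPM. The shFto libraries were below the shScram libraries of the same stage before differentiation and far above them afterwards, and in the order of levels only shFto cells at the MCE stage and shScram preadipocytes overlapped among neighbours. The differentiation-stage difference was 0.99 ± 0.11 SE (limma adjusted p = 0.00032), a ratio of mean TPM of 2.03. The earlier differences, -0.15 ± 0.11 in preadipocytes and -0.29 ± 0.11 at the MCE stage, did not pass (limma adjusted p = 0.309 and 0.103), and the MCE value passed without shScram preadipocyte replicate 1 or 2 (limma adjusted p = 0.0148 and 0.0146).

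Itga6 rose from the MCE to the differentiation stage by 0.43 ± 0.11 in shScram cells (limma adjusted p = 0.0203) and by 1.71 ± 0.11 in shFto cells (limma adjusted p = 3.58e-05). The shScram rise was lost without any of the 4 shScram libraries of these stages (limma adjusted p up to 0.116), while the shFto rise held without each of the 12 libraries. Median-ratio scaling, quantile normalization and GC correction also ended the shScram call (0.16, 0.23 and 0.21). From preadipocytes to the MCE stage it rose by 0.33 ± 0.11 in shScram cells (limma adjusted p = 0.0377), a call lost without any of the 10 libraries outside the shScram preadipocyte pair (limma adjusted p up to 0.129), and the value in shFto cells was 0.19 ± 0.11 (limma adjusted p = 0.235).

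Itgb1 encodes the β1 chain shared by α5β1 and α6β1 (ENSMUSG00000025809, GRCm38 chromosome 8, 128685654 to 128733200, plus strand). The shScram libraries held 620.9 and 399.2 TPM, 306.2 and 275.2 TPM, and 399.2 and 428.0 TPM, and the shFto libraries 446.2 and 510.6 TPM, 362.5 and 355.0 TPM, and 449.2 and 438.9 TPM. The MCE groups were lowest in both lines, and the upper 3 groups of the order overlapped. No difference between the lines passed (log2 -0.06, 0.30 and 0.10, each ± 0.19 SE, with limma adjusted p = 0.824, 0.341 and 0.760). The preadipocyte value was 0.26 without shScram preadipocyte replicate 1 and -0.38 without replicate 2. The MCE value was called without either (limma adjusted p = 0.0134 and 0.0135). Itgb1 fell from preadipocytes to the MCE stage in shScram cells (-0.78 ± 0.19, limma adjusted p = 0.0124), and its value was -0.46 and -1.09 without shScram preadipocyte replicate 1 or 2. The call was lost without shScram MCE replicate 2 (limma adjusted p = 0.0835). The other 3 stage values, -0.41 in shFto cells and 0.51 and 0.31 from the MCE stage on, did not pass (limma adjusted p = 0.147, 0.0831 and 0.279) and passed without shScram preadipocyte replicate 1 (limma adjusted p = 0.00196, 0.00066 and 0.0105).

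Within a library, where TPM of different genes can be compared, Itga6 was at 32.8% and 12.5% of Itga5 in shScram preadipocytes, 10.1% and 10.6% at the MCE stage and 17.7% and 17.5% after differentiation. The shares in shFto cells were 6.68% and 6.56%, 3.94% and 3.81%, and 19.3% and 18.2%. Itga5 thus had the higher TPM in all 12 libraries, and the balance moved toward Itga6 between the MCE and the differentiation stage in both lines. Among all measured α chains, Itga5 made up 25.1% and 45.1% of summed TPM in shScram preadipocytes and 54.3% to 80.3% in the other groups. Itgb1 made up 60.6% to 86.8% of all β chains. These ratios and shares are descriptions and carry no test.

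**Figure D3:**
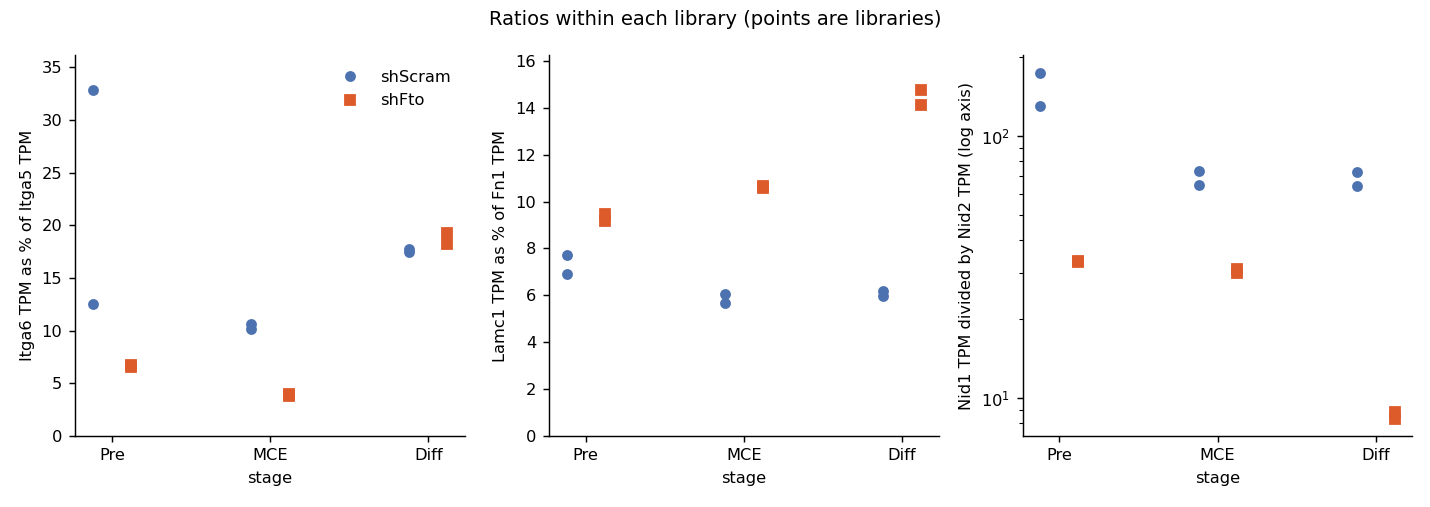
Ratios of TPM within each library (1 point per library) for shScram and shFto cells at the 3 stages: Itga6 as a percentage of Itga5, Lamc1 as a percentage of Fn1 (both on linear axes from 0) and Nid1 divided by Nid2 on a log axis. Lamc1 reached 14.8% and 14.1% of Fn1 in differentiated shFto cells against 5.97% and 6.17% in shScram cells.

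Of 16 other integrin α chains, 7 passed the filter. At the successive stages 1, 2 and 3 of them were higher in shFto cells and 1, 0 and 0 lower, with a median log2 difference of 0.10, 0.10 and 0.68. Over the change to the MCE stage none rose and 5 fell in shScram and 6 in shFto cells, and from there to differentiation 4 and 7 rose and none fell. No interaction of line and stage was called among them. Of all tested genes 15.9%, 10.5% and 11.9% were higher in shFto cells at the successive stages and 12.3%, 7.26% and 9.31% lower. Over the first change 12.2% rose and 26.9% fell in shScram and 8.80% and 19.9% in shFto cells. Over the second 20.0% and 20.2% rose and 5.22% and 6.48% fell. The counts of this and the later lists were not tested against these shares. At the MCE stage Itgav, a chain of receptors for fibronectin and vitronectin, was at 39.2 and 35.9 TPM in shScram against 75.0 and 70.4 TPM in shFto libraries (log2 0.94, limma adjusted p = 0.00268). It was also higher in shFto cells after differentiation (0.69, limma adjusted p = 0.00986). Itga7, a laminin-binding chain, was at 1.79 and 4.04 TPM in shScram preadipocytes and 16.2 and 16.5 TPM in shFto ones (log2 2.21, limma adjusted p = 0.00087, and 1.78 and 2.63 without shScram preadipocyte replicate 1 or 2), and it was higher in shFto cells at both later stages too (1.31 and 2.22). Itga3, another laminin-binding chain, and Itga2b, the platelet fibrinogen receptor chain, were not called between the lines at any stage (log2 -0.51 to 0.85 and -0.88 to 0.30).

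Of 7 other β chains, 6 passed the filter, and 3, 2 and 3 were higher and 0, 1 and 2 lower in shFto cells at the successive stages (median log2 0.73, -0.13 and 0.59). Over the first stage change 3 rose and 2 fell in shScram cells and 1 rose and 2 fell in shFto cells, and over the second 1 rose and 1 fell in shScram cells and 2 rose in shFto cells. For the first change 3 had a more negative value in shFto than in shScram cells, and for the second none differed. Itgb4, the other partner of α6, had 3.35 and 4.41 TPM in the shScram MCE libraries against 0.46 and 0.27 TPM in the shFto ones, and 5.07 and 4.66 TPM against 0.83 and 1.097 TPM after differentiation. It was lower in shFto cells at both stages (log2 -1.83 and -1.58, limma adjusted p = 0.00026 and 0.00047), at the later of which Itga6 was higher. Itgb5, which pairs with αv, was higher in shFto cells at all 3 stages (log2 1.17, 0.96 and 0.89), and Itgb3, the other common αv partner, in preadipocytes (1.63, limma adjusted p = 0.00020). Without shScram preadipocyte replicate 1 or 2 the preadipocyte differences were 0.74 and 1.61 for Itgb5 and 1.46 and 1.81 for Itgb3, and all were called. The leukocyte chains Itgb7 and Itgb2 were at no more than 8.58 and 4.30 TPM in any library, and Itgb7 was higher in shFto preadipocytes and differentiated cells (1.24 and 1.29) and Itgb2 lower in the latter (-0.79).

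**Figure D4:**
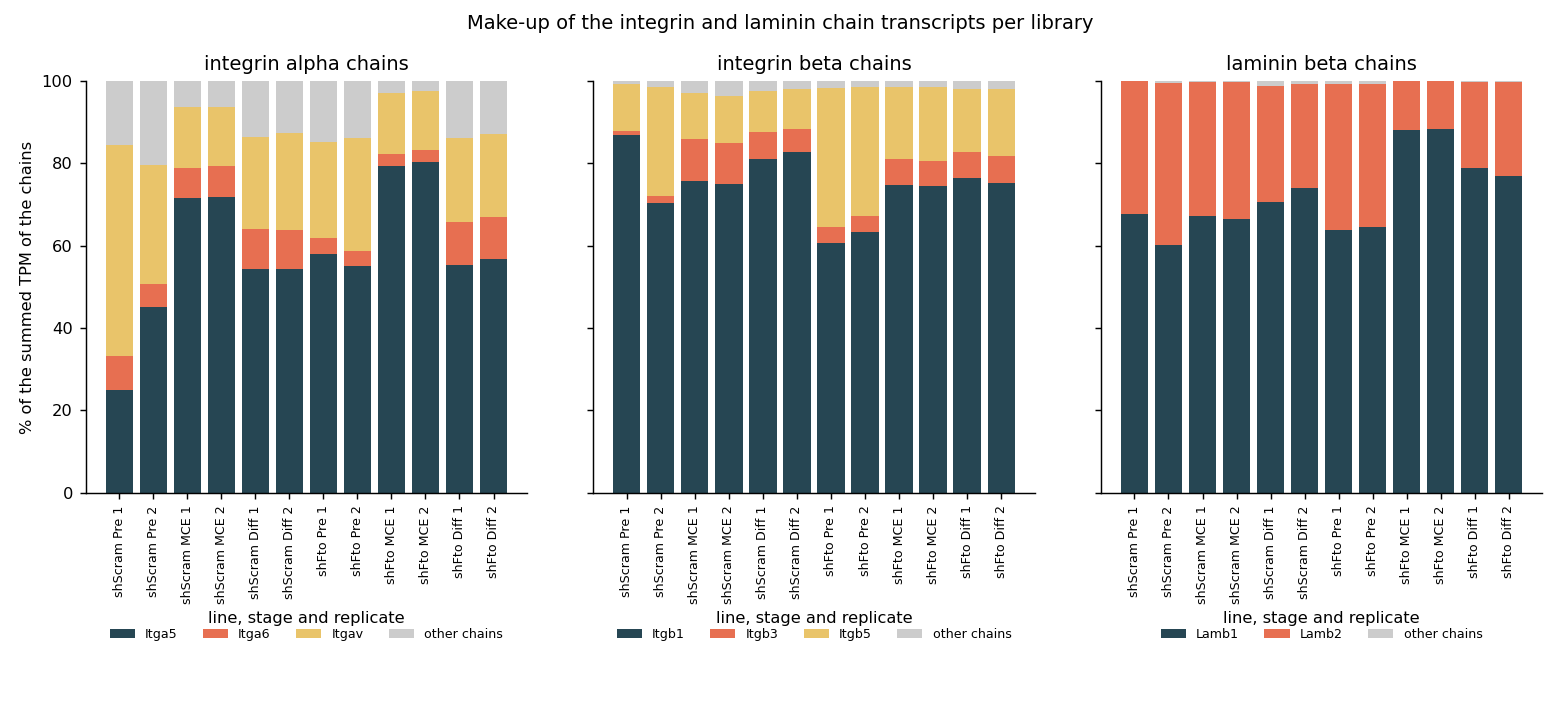
Share of each chain in the summed TPM of its family (y axis, percent, stacked to 100) in each of the 12 libraries (x axis) for integrin α, integrin β and laminin β chains. Itga5 and Itgb1 were the largest shares in all libraries except shScram preadipocyte replicate 1, where Itgav led the α chains with 51.2%, and Lamb1 was larger than Lamb2 in all 12.

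Fn1 encodes fibronectin, the main ligand of α5β1 (ENSMUSG00000026193, GRCm38 chromosome 1, 71585520 to 71653200, minus strand). It was at 1732 and 1765 TPM, 2767 and 2455 TPM, and 2386 and 2313 TPM in shScram cells at the successive stages. With the Fto hairpin it was at 1772 and 1944 TPM, 1946 and 1741 TPM, and 2453 and 2681 TPM. Fn1 varied least of the 10 genes, with the highest library 1.60 times the lowest, and the 3 lowest groups, namely shScram preadipocytes and shFto cells before differentiation, overlapped as neighbours. It rose in shScram cells from preadipocytes to the MCE stage (0.58 ± 0.14 SE, limma adjusted p = 0.0117), but not with quantile normalization (0.11, limma adjusted p = 0.603). In shFto cells the value there was -0.01 ± 0.14 (limma adjusted p = 0.968).

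At the MCE stage Fn1 was lower with the Fto hairpin than without it (-0.50 ± 0.14, limma adjusted p = 0.0379), and it rose in shFto cells from there to differentiation (0.48 ± 0.14, limma adjusted p = 0.0335). Both calls were near the threshold. The first was lost without any of the 10 libraries outside the shScram preadipocyte pair (limma adjusted p up to 0.249), of which the 6 outside the MCE stage left the difference at -0.50, and with quantile normalization (-0.30, limma adjusted p = 0.252), and the second without any of the 6 shFto libraries or the 2 differentiated shScram libraries (up to 0.214). The rise in shScram cells was lost without shScram MCE replicate 1 (limma adjusted p = 0.0765). The differences in preadipocytes (0.09 ± 0.14) and after differentiation (0.13 ± 0.14) did not pass (limma adjusted p = 0.654 and 0.580), and the shScram value from the MCE stage to differentiation was -0.15 ± 0.14 (limma adjusted p = 0.472).

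Of 16 genes for fibronectin partners and the provisional matrix, 15 passed the filter. In shFto cells 8, 6 and 8 of them were higher and 2, 0 and 2 lower at the successive stages, with medians of 0.95, 0.71 and 0.75. Over the first stage change 2 rose and 8 fell in shScram cells and 3 rose and 7 fell in shFto cells, and over the second 8 rose and 2 fell and 6 rose and 1 fell. For each stage change, 2 had a more positive value in shFto cells. Spp1, which encodes osteopontin, was at 619.8 and 793.3 TPM in differentiated shScram and 2185 and 2264 TPM in differentiated shFto cells (log2 1.66, limma adjusted p = 0.00011). Thbs1, which encodes thrombospondin 1, was higher in shFto cells at all 3 stages (0.78, 1.45 and 1.56). Postn, for periostin, was lower in shFto preadipocytes and differentiated cells (-0.99 and -1.83, limma adjusted p = 0.0259 and 0.00143), and Vcan, for versican, was lower in preadipocytes (-1.07, limma adjusted p = 0.0168). The preadipocyte values without shScram replicate 1 or 2 were -0.55 and -1.44 for Postn and -0.65 and -1.48 for Vcan, all called.

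Lama4 encodes the laminin α4 chain, the α chain of mesenchymal and adipose laminins (ENSMUSG00000019846, GRCm38 chromosome 10, 38965515 to 39110188, plus strand). In shScram cells it was at 88.8 and 71.7 TPM, 116.7 and 97.0 TPM, and 143.3 and 146.2 TPM. In shFto cells it was at 48.9 and 52.8 TPM, 75.9 and 67.4 TPM, and 179.0 and 182.0 TPM. The shFto libraries lay below the shScram libraries at the first 2 stages and above them at the last, and only shScram preadipocytes and shFto cells at the MCE stage overlapped as neighbours. Lama4 was lower in shFto preadipocytes (-0.64 ± 0.14 SE, limma adjusted p = 0.0138) and at the MCE stage (-0.57 ± 0.14, limma adjusted p = 0.0248). The differentiation-stage value of 0.32 ± 0.14 did not pass (limma adjusted p = 0.155, and 0.0190 without either shScram preadipocyte library). The preadipocyte call was lost without either shFto preadipocyte library (limma adjusted p up to 0.0923), and the MCE call without shScram MCE replicate 1 or either shFto MCE library (up to 0.182). The preadipocyte difference was -0.49 and -0.79 without shScram replicate 1 or 2, and both were called.

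Lama4 rose by 1.32 ± 0.14 from the MCE to the differentiation stage in shFto cells (limma adjusted p = 0.00035), a call that held without each of the 12 libraries. The same change in shScram cells was 0.44 ± 0.14 (limma adjusted p = 0.0506, and 0.00320 without either shScram preadipocyte library). From preadipocytes to the MCE stage it rose by 0.41 ± 0.14 in shScram and by 0.49 ± 0.14 in shFto cells (limma adjusted p = 0.0469 and 0.0314). The first of these held only without shScram preadipocyte replicate 1 among the 12 fits that left out a library (limma adjusted p up to 0.250 in the others), and the second was lost without any shFto library or either differentiated shScram library (up to 0.197).

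Lamb1 encodes the laminin β1 chain (ENSMUSG00000002900, GRCm38 chromosome 12, 31265234 to 31329644, plus strand). It was at 120.5 and 132.5 TPM, 152.6 and 135.6 TPM, and 244.0 and 248.5 TPM in shScram cells, and at 162.2 and 168.9 TPM, 256.9 and 238.1 TPM, and 400.5 and 405.1 TPM in shFto cells. The shFto libraries were above the shScram libraries at each stage, and shFto cells at the MCE stage were level with differentiated shScram cells. The differences were 0.39 ± 0.11 SE, 0.78 ± 0.11 and 0.71 ± 0.11 (limma adjusted p = 0.0336, 0.00176 and 0.00229). The MCE and differentiation calls held without each of the 12 libraries, but the preadipocyte call held in 4 of those 12 fits (limma adjusted p up to 0.136) and its value was 0.10 after GC correction. With quantile normalization it was 0.26 (limma adjusted p = 0.0918), and without shScram preadipocyte replicate 1 or 2 it was 0.32 and 0.45 and called. The 8 libraries without which it was lost were all those of shFto cells and the 2 of differentiated shScram cells.

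Lamb1 rose from the MCE to the differentiation stage in both lines, by 0.77 ± 0.11 in shScram and 0.70 ± 0.11 in shFto cells (limma adjusted p = 0.00170 and 0.00227). From preadipocytes to the MCE stage it rose in shFto cells (0.58 ± 0.11, limma adjusted p = 0.00464), which missed the threshold without shFto MCE replicate 1 (limma adjusted p = 0.0523). In shScram cells the value was 0.19 ± 0.11 (limma adjusted p = 0.212, and 0.0275 without shScram preadipocyte replicate 2).

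Lamc1 encodes the laminin γ1 chain, which most laminin trimers share (ENSMUSG00000026478, GRCm38 chromosome 1, 153218922 to 153332786, minus strand). In shScram cells it was at 133.3 and 121.6 TPM, 157.2 and 148.4 TPM, and 142.4 and 142.7 TPM at the successive stages. The shFto libraries had 162.4 and 184.1 TPM, 207.7 and 184.3 TPM, and 362.1 and 378.4 TPM. All 6 shFto libraries were above all 6 shScram libraries, and no neighbouring groups in the order of levels overlapped. Lamc1 was higher in shFto cells in preadipocytes (0.44 ± 0.12 SE, limma adjusted p = 0.0266) and after differentiation (1.37 ± 0.12, limma adjusted p = 8.24e-05), with 0.36 ± 0.12 at the MCE stage (limma adjusted p = 0.0705, and 0.00555 without shScram preadipocyte replicate 1). The preadipocyte call was lost without either shFto preadipocyte library (limma adjusted p up to 0.140), and with median-ratio scaling or GC correction (0.36 and 0.10), while the differentiation call held without each of the 12 libraries.

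Lamc1 rose from the MCE to the differentiation stage in shFto cells by 0.92 ± 0.12 (limma adjusted p = 0.00082), beside -0.10 ± 0.12 in shScram cells (limma adjusted p = 0.578). The earlier changes, 0.26 ± 0.12 in shScram and 0.18 ± 0.12 in shFto cells, did not pass (limma adjusted p = 0.108 and 0.306), and the first passed without shScram preadipocyte replicate 1 (limma adjusted p = 0.0212). Set against fibronectin within each library, Lamc1 was at 5.68% to 7.70% of Fn1 in shScram cells, 9.17% to 10.7% in shFto cells before differentiation and 14.1% to 14.8% after it.

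Among the chains of each kind, Lama4 made up 98.6% to 99.4% of laminin α transcripts in shScram cells, and Lamc1 96.0% to 99.2% of γ transcripts in all libraries. In shFto preadipocytes Lama4 made up 75.8% and 76.3%, and Lama5 24.0% and 23.2%. Lamb1 made up 60.1% to 73.9% of β transcripts in shScram cells and 88.0% and 88.4% in shFto cells at the MCE stage, with Lamb2 as most of the rest. Of 8 other laminin chains 5 passed the filter, and 2, 1 and 3 were higher and 0, 1 and 0 lower in shFto cells at the successive stages (median log2 0.72, -0.14 and 0.72). Over the first stage change none rose, 1 fell in shScram and 4 in shFto cells, and over the second 2 and 4 rose and none fell. The change differed between the lines for 2 of the 5, more negative in shFto cells, over the first and for 3, more positive, over the second.

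Lama5, a chain of epithelial and vascular laminins, was at 0.25 and 0.23 TPM in shScram preadipocytes and at 15.5 and 16.1 TPM in shFto preadipocytes (log2 3.76, limma adjusted p = 4.1e-06, and 3.77 and 3.75 without shScram preadipocyte replicate 1 or 2). It was likewise higher with the Fto hairpin at the MCE stage (3.42 and 3.12 TPM against 0.48 and 0.40) and after differentiation (17.1 and 18.7 TPM against 0.36 and 0.42), with log2 1.57 and 3.77. At the MCE stage Lamb2, for the β2 chain, was lower in shFto cells (34.9 and 31.2 TPM against 73.5 and 67.4, log2 -1.07, limma adjusted p = 0.00449). Lamb3, for the β3 chain, was at no more than 4.37 TPM and was not called between the lines.

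Nid1 encodes nidogen 1, which joins laminin γ1 to collagen IV (ENSMUSG00000005397, GRCm38 chromosome 13, 13437551 to 13512269, plus strand). It was at 150.0 and 152.7 TPM, 197.0 and 173.7 TPM, and 366.0 and 362.3 TPM in shScram cells, and at 150.3 and 168.1 TPM, 335.6 and 309.5 TPM, and 560.5 and 600.4 TPM in shFto cells. The lines overlapped as preadipocytes and separated at both later stages. The preadipocyte difference was 0.07 ± 0.12 SE (limma adjusted p = 0.664), and those at the MCE and differentiation stages were 0.80 ± 0.12 and 0.67 ± 0.12 (limma adjusted p = 0.00196 and 0.00396). Nid1 rose from preadipocytes to the MCE stage in shFto cells (1.02 ± 0.12, limma adjusted p = 0.00029), with 0.29 ± 0.12 in shScram cells (limma adjusted p = 0.0803, and 0.0491 and 0.0257 without shScram preadipocyte replicate 1 or 2). From there to differentiation it rose in both lines (0.97 ± 0.12 and 0.85 ± 0.12, limma adjusted p = 0.00075 and 0.00118).

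Nid2 encodes nidogen 2, the second member of the family (ENSMUSG00000021806, GRCm38 chromosome 14, 19751265 to 19811787, plus strand). In shScram cells it was at 0.863 and 1.17 TPM, 2.68 and 2.67 TPM, and 5.05 and 5.65 TPM. In shFto cells it was at 4.56 and 5.07 TPM, 11.3 and 10.0 TPM, and 67.3 and 68.0 TPM. Nid2 spanned the widest range of the 10 genes, with the highest library 78.7 times the lowest, and shFto preadipocytes were already level with differentiated shScram cells. The differences between the lines were 1.53 ± 0.14 SE, 1.66 ± 0.14 and 3.44 ± 0.14 (limma adjusted p = 0.00030, 0.00012 and 1.45e-06), and the ratios of mean TPM were 4.73, 3.98 and 12.6, since the added 1 TPM understates changes of low genes. The preadipocyte difference was 1.42 and 1.64 without shScram replicate 1 or 2, and both were called.

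Nid2 rose at every stage change in both lines, by 0.87 ± 0.14 and 0.79 ± 0.14 in shScram cells (limma adjusted p = 0.00196 and 0.00511) and by 1.00 ± 0.14 and 2.56 ± 0.14 in shFto cells (limma adjusted p = 0.00100 and 2.76e-05), and these 4 calls held without each of the 12 libraries. The second shScram rise was lost with quantile normalization (0.42, limma adjusted p = 0.0569). Nid1 TPM was 64.1 to 173.8 times that of Nid2 in shScram libraries, 29.8 to 33.1 times in shFto libraries before differentiation, and 8.33 and 8.83 times after it. Nid2 overlaps Rtraf on the opposite strand, and whether counting used strand is not given, so its values are uncertain by reads of that gene. Rtraf was at 160.8 and 161.8 TPM in differentiated shFto cells and at 147.6 and 179.4 TPM in differentiated shScram cells. In preadipocytes, where Nid2 was lowest in each line, Rtraf was at 133.2 and 135.8 TPM in shFto and 280.2 and 140.1 TPM in shScram cells.

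Sparc encodes osteonectin, a collagen-binding protein of basement membranes and interstitial matrix (ENSMUSG00000018593, GRCm38 chromosome 11, 55394500 to 55423183, minus strand). It was at 1236 and 1536 TPM, 592.4 and 567.3 TPM, and 1104 and 1051 TPM in shScram cells. In shFto cells it was at 2929 and 2909 TPM, 2399 and 2364 TPM, and 2963 and 2895 TPM. Every shFto library was above every shScram library, and only shFto preadipocytes and differentiated shFto cells overlapped as neighbours. The differences were 1.08 ± 0.14 SE, 2.04 ± 0.14 and 1.44 ± 0.14 (limma adjusted p = 0.00136, 3.39e-05 and 0.00016), and all 3 calls held without each of the 12 libraries. The preadipocyte value was 0.93 and 1.24 without shScram preadipocyte replicate 1 or 2. Sparc fell by 1.25 on the log2 scale (± 0.14, limma adjusted p = 0.00021) from preadipocytes to the MCE stage in shScram cells and then rose by 0.89 ± 0.14 (limma adjusted p = 0.00238). In shFto cells the corresponding values were -0.29 ± 0.14 and 0.30 ± 0.14 (limma adjusted p = 0.153 and 0.149, and 0.00580 and 0.00554 without shScram preadipocyte replicate 1).

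**Figure D5:**
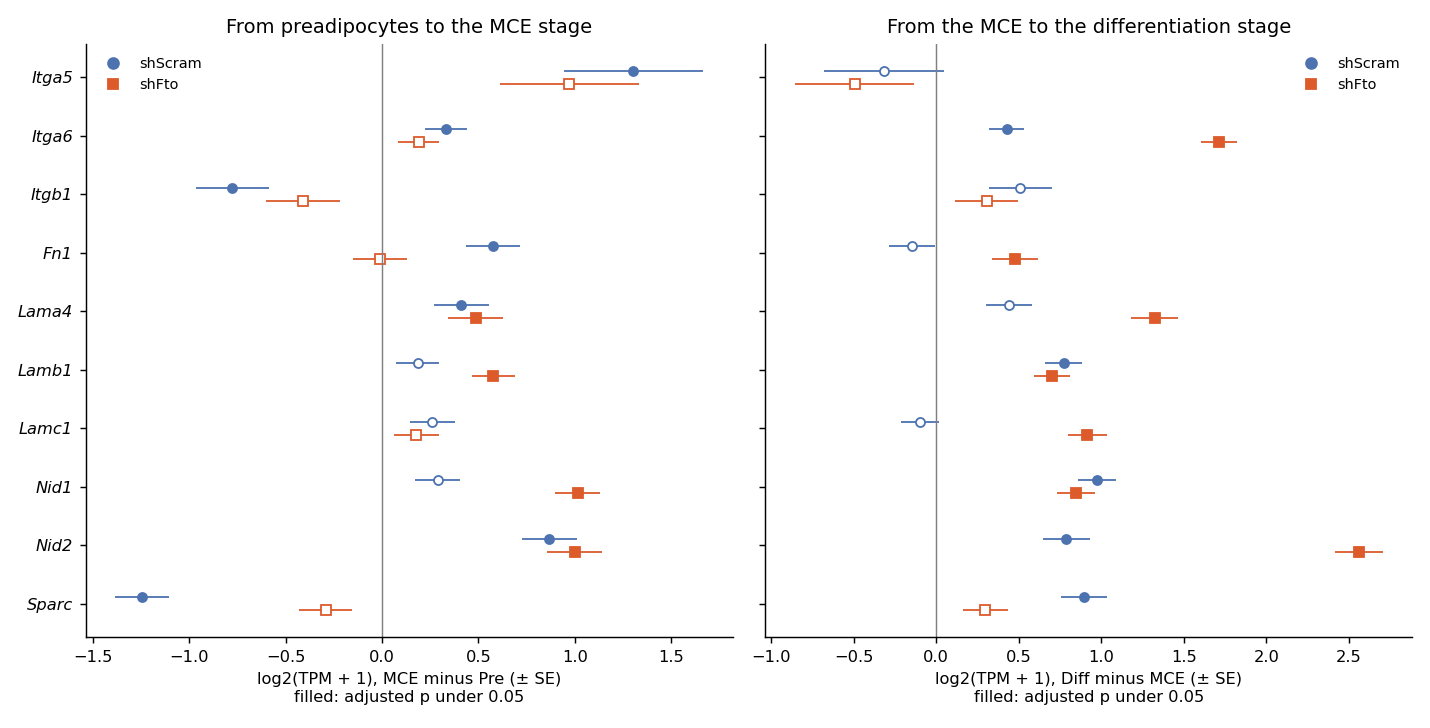
Change from preadipocytes to the MCE stage and from the MCE to the differentiation stage on the log2(TPM + 1) scale (x axes, with SE from limma) for the 10 genes (y axis) in shScram and shFto cells, with filled symbols where the adjusted p was under 0.05. The shFto symbols of Itga6, Lamc1 and Nid2 lie to the right of the shScram ones in the second panel by 1.29, 1.02 and 1.77.

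Of 18 other basement membrane genes 13 passed the filter, and 5, 0 and 2 were higher and 2, 2 and 3 lower in shFto cells at the successive stages (median log2 0.60, 0.27 and 0.22). Over the first stage change 5 rose and 2 fell in shScram cells and 3 rose and 3 fell in shFto cells, and over the second 3 rose and 1 fell and 2 rose and none fell. The change differed between the lines for 1 of the 13 over the first, lower in shFto cells, and for 3 over the second, 1 higher and 2 lower. Col4a1 and Col4a2, the chains of the common collagen IV, were at 186.8 and 505.2 TPM and at 132.8 and 359.6 TPM in shScram preadipocytes and at 862.8 and 950.0 TPM and at 716.7 and 747.9 TPM in shFto preadipocytes. Both were called there (log2 1.56 and 1.74, limma adjusted p = 0.0163 and 0.0109), where the shScram pair differed widely, and neither was called at the later stages. Fbln2, for fibulin 2, was called in preadipocytes only (1.32, limma adjusted p = 0.0198), and Col18a1, for collagen XVIII, at no stage (0.88, 0.05 and 0.40). The preadipocyte values without shScram replicate 1 or 2 were 0.84 and 2.27 for Col4a1, 1.02 and 2.45 for Col4a2 and 0.69 and 1.96 for Fbln2.

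Of 7 receptors for laminin outside the integrins 6 passed the filter, and 2, 1 and 1 were higher and none lower in shFto cells at the successive stages (median log2 0.13, 0.20 and 0.34). Sdc1, for the proteoglycan syndecan 1, was higher in shFto preadipocytes (1.73, limma adjusted p = 0.0145, and 0.94 and 2.51 without shScram preadipocyte replicate 1 or 2), and Sdc4, Dag1 (dystroglycan) and Rpsa (the laminin-binding ribosomal protein SA) were not called at any stage between the lines. Over the first stage change 3 of the 6 rose and 1 fell in shScram cells and 2 rose in shFto cells, over the second 1 rose and 1 fell in shScram cells and none passed in shFto cells, and no change differed between the lines. Of 28 genes of the integrin adhesion complex, which link integrins to actin, 27 passed the filter, and 9, 3 and 3 were higher and 1, 3 and 4 lower at the successive stages (median log2 0.51, 0.02 and -0.06). Over the first stage change 1 rose and 8 fell in shScram and 0 rose and 12 fell in shFto cells, and over the second 8 rose and 1 fell and 9 rose and 2 fell. The first change was more negative in shFto cells for 4 of the 27. Without shScram preadipocyte replicate 1 or 2, more of the 27 were called in preadipocytes, and no share of all tested genes is given for these fits. Zyx, for zyxin, was called there (1.13, limma adjusted p = 0.0352, and 0.47 and 1.80 in these fits), Actn1, for α-actinin 1, at the MCE stage (0.49, limma adjusted p = 0.0151), and Flna (filamin A) and Actn4 (α-actinin 4) at no stage.

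Markers of cell state also differed between the lines. The 7 adipocyte markers summed to 368.5 and 367.6 TPM in the shScram MCE libraries against 262.0 and 270.9 TPM in the shFto ones, and to 1519 and 1511 TPM against 450.2 and 411.8 TPM after differentiation. At the successive stages 1, 1 and 0 of the 7 were higher and 0, 5 and 6 lower in shFto cells. The marker called higher was Lpl (log2 0.91 in preadipocytes and 1.22 at the MCE stage). Lpl alone was at 195.9 and 198.9 TPM in the shFto MCE libraries. The 6 smooth muscle markers, which myofibroblasts share, summed to 326.0 and 494.0 TPM in shScram preadipocytes against 1195 and 1108 TPM in shFto ones, 40.8 and 35.5 TPM against 211.9 and 191.7 TPM in the MCE groups, and 66.9 and 69.8 TPM against 138.4 and 135.0 TPM after differentiation. Of the 4 that passed the filter 4, 3 and 2 were higher in shFto cells at the successive stages and none lower, of the 2 macrophage markers that passed 1 was higher in preadipocytes, and of 6 fibroblast markers 3, 2 and 2 were higher and 1, 0 and 0 lower. Acta2 ran from 6.90 to 1049 TPM, Cnn1 was at no more than 0.63 TPM and at 0 in 5 libraries, and Myh11 was at no more than 0.97 TPM. In bulk RNA, fewer cells of a type and less RNA per cell cannot be told apart, and the part of these markers in the differences of the 10 genes was not tested.

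The change between stages differed between the lines for 2 of the 10 genes over the first change, Nid1 and Sparc, and for 3 over the second, Itga6, Lamc1 and Nid2, all more positive in shFto cells. Of all tested genes 2.52% were called higher and 2.59% lower in this sense for the first change, and 1.47% and 1.01% for the second. The differences for Itga6 and Nid2 (1.29 ± 0.15 SE and 1.77 ± 0.20, limma adjusted p = 0.00365 and 0.00306) held without each of the 12 libraries. That for Lamc1 (1.02 ± 0.17, limma adjusted p = 0.0170) was lost without any of the 8 MCE and differentiation libraries (limma adjusted p up to 0.107). Those for Nid1 (0.73 ± 0.17, limma adjusted p = 0.0414) and Sparc (0.95 ± 0.20, limma adjusted p = 0.0293) were lost without any of the 10 libraries outside the shScram preadipocyte pair (up to 0.189 and 0.130) and held without either of that pair. With the replicate number as a block neither was called, and Sparc was not called with no filter nor Nid1 with no trend (limma adjusted p = 0.0692 and 0.0575). The values for Fn1, -0.59 ± 0.20 over the first change and 0.63 ± 0.20 over the second, and for Lama4 over the second, 0.88 ± 0.20, did not pass (limma adjusted p = 0.131, 0.158 and 0.0600). Without shScram preadipocyte replicate 1 these 3 were called (limma adjusted p = 0.0347, 0.0135 and 0.00192), as were Lamb1 over the first change (0.46) and Sparc over the second (-0.59). Itga5 over the first change had no settled direction, with -0.33 ± 0.51 over all libraries (limma adjusted p = 0.695), 0.40 without shScram preadipocyte replicate 1 and -1.06 without replicate 2. The median over the 10 genes was 0.10 and 0.28 for the 2 changes, and -0.03 and -0.05 over all tested genes.

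The genes most like Itga5 over the 12 libraries, among 10798 with a mean of at least 5 TPM, were Actr1a, Nelfcd and Arpc1a (Pearson r of log2(TPM + 1) 0.99, 0.99 and 0.98). Those most like Itga6 were Gap43, Nfkbiz and Angptl7 (r = 0.98, 0.97 and 0.96), and those most like Fn1 were Cyb561, Adam9 and Med13l (r = 0.94, 0.93 and 0.91). The 12 points share groups and libraries, and the correlations are descriptions.

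The longest annotated transcripts of the 10 genes ran from 2300 bases for Sparc to 8315 for Fn1, and 9 of 10 were longer than the median of 2790 over tested genes. The letters GGAC, the core of the usual N6-methyladenosine motif, occurred 3.48 to 6.80 times per kilobase, lowest in Sparc and highest in Itga5, and 7 of 10 were above the median of 3.86. No methylation was measured in these libraries. Besides Nid2, other members overlap annotated genes: Fn1 overlaps Apol7d on the opposite strand, which was at no more than 2.14 TPM, and the partners of Itga5, Itga6, Lamc1 and Nid1 with a value were at no more than 3.70 TPM.

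Promoter sequence from RefSeq (GRCm38.p6) was matched for 5 of the 10 genes, Itga5, Itgb1, Lamb1, Nid1 and Sparc. Shown are the 190 bases from 250 to 61 before the start for Itga5, Lamb1, Nid1 and Sparc, which were higher in shFto cells at 1 or more stages, and for Itgb1, which was not called between the lines. They lie at chr15:103366852-103367041 (minus strand), chr12:31265043-31265232 (plus), chr13:13437352-13437541 (plus), chr11:55420141-55420330 (minus) and chr8:128685404-128685593 (plus). The window of Sparc lies within the GENCODE gene, downstream of its first annotated base. Capitals mark the GC box, GGGCGG or CCGCCC on the other strand.
Itga5: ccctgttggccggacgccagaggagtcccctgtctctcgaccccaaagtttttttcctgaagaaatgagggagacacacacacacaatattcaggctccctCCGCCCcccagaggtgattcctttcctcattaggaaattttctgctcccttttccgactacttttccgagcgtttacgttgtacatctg
Lamb1: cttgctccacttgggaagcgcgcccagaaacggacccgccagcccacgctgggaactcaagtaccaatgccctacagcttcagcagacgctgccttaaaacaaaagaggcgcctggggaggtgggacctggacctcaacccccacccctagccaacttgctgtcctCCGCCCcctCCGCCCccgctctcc
Nid1: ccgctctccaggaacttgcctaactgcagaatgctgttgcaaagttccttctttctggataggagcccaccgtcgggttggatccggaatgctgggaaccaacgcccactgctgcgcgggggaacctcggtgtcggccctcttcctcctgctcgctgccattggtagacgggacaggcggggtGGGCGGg
Sparc: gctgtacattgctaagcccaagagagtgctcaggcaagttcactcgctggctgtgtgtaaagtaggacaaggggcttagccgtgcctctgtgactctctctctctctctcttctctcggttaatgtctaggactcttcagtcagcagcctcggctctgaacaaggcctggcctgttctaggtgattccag
Itgb1: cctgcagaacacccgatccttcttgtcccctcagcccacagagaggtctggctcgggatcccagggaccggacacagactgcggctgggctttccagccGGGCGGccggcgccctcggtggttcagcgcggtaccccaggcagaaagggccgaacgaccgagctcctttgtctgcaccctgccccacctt

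The window of Lamb1 held 2 GC boxes, those of Itga5, Nid1 and Itgb1 held 1 each and that of Sparc none, while 22.8% of 32851 RefSeq promoters held at least 1 in the same window. Sparc, higher in shFto cells at all 3 stages, thus held no GC box, and Itgb1, not called, held 1. The letters CCAAT (or ATTGG) were found in Lamb1 and Nid1 and in 26.7% of all promoters, and GGAATG (or CATTCC), the core of TEAD sites, in Nid1 and in 10.2%. Neither TGANTCA nor CACGTG was found in any of the 5. A match to these letters is a description of the window and not a binding site.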

How the data were processed

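RNA was measured in 12 3T3-L1 libraries, 2 in each of 6 groups. The study's methods describe total RNA that was chemically fragmented, selected for short fragments and tailed with poly(A). They name rhein-treated cells there and do not say separately how these 12 libraries were made. The authors deposited TPM from StringTie 2.1.4, run on HISAT2 2.1.0 alignments to GRCm38 after trimming in Trim Galore 0.6.5, with an Ensembl annotation. Differential calls by the authors (DESeq2 1.30.1) were not used. Strand use is not given in the sources used here, and TPM keeps no depth, so no counting interval is given. Short fragments and library GC content can alter TPM.

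Groups followed the sample titles. Genes with at least 1 TPM in at least 2 libraries (15968) were tested on log2(TPM + 1) with limma 3.58.1 in R 4.3.3, with a mean per group, a mean-variance trend and all libraries in the fit, which left 6 residual degrees of freedom. Tests were two-sided, with Benjamini-Hochberg adjustment over all tested genes in each of 9 comparisons. Alternatives were a pseudocount of 0.1, no filter, a mean of at least 5 TPM, median-ratio and quantile scaling, only the libraries compared, no trend, a replicate block, GC correction (a spline with 5 degrees of freedom), block and GC correction together, and leaving out each library. The code was tested on simulated data.

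The 10 genes were named in full, and other genes by role within lists of integrin and laminin chains, basement membrane, laminin receptors, fibronectin partners, adhesion complex and cell type markers. Genes, lists and tests were chosen with earlier results of these data known. Transcript features came from GENCODE M21, which held 99.4% of gene identifiers.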

Additional observations from a re-analysis of the deposited data

Results flagged for a closer look

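For 5 genes the change between stages differed between shFto and shScram cells by the test of that difference in limma. From preadipocytes to the MCE stage, the difference in change was 0.73 ± 0.17 SE (log2) for Nid1 and 0.95 ± 0.20 for Sparc (limma adjusted p = 0.0414 and 0.0293). From the MCE to the differentiation stage it was 1.29 ± 0.15 for Itga6, 1.02 ± 0.17 for Lamc1 and 1.77 ± 0.20 for Nid2 (limma adjusted p = 0.00365, 0.0170 and 0.00306). Over the other change, the 5 values ran from -0.59 for Sparc to 0.13 for Nid2 and did not pass. The called differences for Itga6 and Nid2 held without each of the 12 libraries, and those for Lamc1, Nid1 and Sparc did not. With the replicate block, Nid1 and Sparc were not called.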

How the results depend on the processing

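Of the 46 called values, 23 were called in all 22 alternatives and none changed direction. The number of the 10 genes called moved as follows, and the cause was not tested. The numbers of all tested genes called under another setting are given above for median-ratio scaling only. The other moved counts are therefore not set against those of all genes. With only the libraries compared, the counts were 0 and 10 between the lines in preadipocytes and at the MCE stage, 0 in shScram and 7 in shFto cells from preadipocytes to the MCE stage, 8 in shScram cells from there on, and 0 and 6 for the differences in change. Median-ratio and quantile scaling gave 7 each in shFto cells from preadipocytes to the MCE stage. Quantile scaling gave 3 for the later change in shScram cells. For the first difference in change, no filter and no trend gave 1 each, and for the second GC correction gave 5. Leaving out single libraries gave 2 to 7, 4 to 10 and 6 to 8 between the lines at the successive stages, 3 to 9 and 2 to 7 for the first change in shScram and shFto cells, 4 to 8 and 6 to 10 for the second, and 0 to 6 and 2 to 6 for the differences in change.

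Deviations of libraries with the same replicate number were mostly not alike across groups, with 2 of 15 pairs of groups correlating above 0.1 (range -0.290 to 0.172). Replicate differences also went with GC content in some groups, so this check cannot decide whether the libraries were paired. With the replicate block 7 calls were lost and none gained, and the first difference in change had 0 calls.

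Directions turned only for values that were not called in the main fit. With a pseudocount of 0.1, Nid2 was -0.20 for the first difference in change. Median-ratio and quantile scaling gave -0.0087 and -0.060 for Nid1 between preadipocytes. Median-ratio scaling gave 0.23 for Fn1 in shFto cells over the first change, and quantile scaling 0.045 for Fn1 in shScram cells over the second. GC correction, with or without the block, gave 0.12, -0.29 and -0.046 for Itgb1, Fn1 and Nid1 between preadipocytes, 0.22 for Fn1 in shFto cells over the first change, and 0.23 and 0.19 for Itga5 and Lamc1 in the first difference in change. Leaving out single libraries gave -0.38 to 0.26 for Itgb1 and -0.0098 to 0.15 for Nid1 between preadipocytes, and -0.092 to 0.068 for Fn1 in shFto cells over the first change. For the first difference in change it gave -1.06 to 0.40 for Itga5, -0.077 to 0.23 for Lama4 and -0.17 to 0.0074 for Lamc1, and for the second -0.15 to 0.015 for Lamb1.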
